A study of Mus musculus with 6 samples.

Results

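The resting state of the mouse femur was described here from the 3 control libraries of a series of 6, across all 28526 rows of the deposited scaled table that name an Ensembl mouse gene. The animals behind these libraries were WT mice of the C57BL/6 strain at 12 weeks of age, with the treatment given as Control. RNA was taken as total RNA from a femur fraction enriched for osteocytes, made into libraries by Nextera XT and read from both ends on a HiSeq1500, with reads of 126 bp. Members were chosen by column name: the columns that start with N were taken as control because the others start with the initial of the series' treatment, blood removal, which is not used here. The columns carry the numbers 1, 2 and 4 and the sample titles the numbers 1 to 3, so the libraries are called control 1, 2 and 4 by column. The labels do not say whether a library came from 1 animal or from several, nor that different animals gave the different libraries. The spread given below is therefore the spread between libraries, which may be technical. There is no second group in this description, so no test was made.

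Osteocytes are bone-forming cells that have become buried in the mineralised matrix, where they stay linked to each other and to the bone surface by long processes. They are known for the phosphate-regulating genes Dmp1, Mepe, Phex and Fgf23 and for Sost, whose product sclerostin restrains bone formation by blocking Wnt signalling. Osteoblasts lay down the collagen I matrix, and osteoclasts, which come from the blood lineage, dissolve it. The femoral shaft encloses the marrow, the main site of blood formation in the adult mouse, and is crossed by vessels and wrapped in periosteum and muscle. RNA of any of these neighbours can be carried into a bone fraction. In bulk RNA, fewer cells of a type and less RNA per cell cannot be told apart.

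The libraries held 11219243, 19015588 and 15156899 gene counts, so that 3 counts were worth 0.303, 0.168 and 0.208 on the scale of the deposited values, which are library-scaled counts adjusted by the TMM method (CPM). The 10 most abundant genes took 14.1% to 16.2% of all gene counts, and the 100 most abundant 29.9% to 31.3%. Protein-coding genes held 94.5% to 95.2% of counts and the mitochondrial genome 1.13% to 1.59%. No pair of libraries agreed within sampling noise, since chi-square per gene ran from 20.9 to 46.1, and Pearson's r of log2 values over 16344 genes was 0.970 to 0.984. Reads carried no molecular identifiers, so every counting interval given below covers counting error only.

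Levels of different genes were compared per kilobase of annotated exon, as CPM per kb, and ranked among 16337 genes at a mean of at least 1 CPM. The median ranked gene stood at 4.48 CPM per kb. The highest gene was Spp1 (osteopontin, a secreted matrix phosphoprotein), at 17965 ± 4113 CPM per kb (SD, n = 3). It was followed by S100a9 (a calcium-binding protein of neutrophils) at 16636 ± 7213, Hbb-bs (adult beta-globin) at 16398 ± 5909, Dmp1 at 12755 ± 4990 and S100a8 at 10908 ± 3887 CPM per kb. These means lay within 1 SD of at least one neighbour in the order, so the order among them was not resolved by 3 libraries. The top of the list was thus a mixture of bone matrix, neutrophil and red cell transcripts.

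Among the 20 highest protein-coding genes, 6 belonged to the osteocyte and osteoblast lists (Spp1, Dmp1, Col1a1, Bglap, Mepe and Col1a2). Another 6 were neutrophil genes (S100a9, S100a8, Ngp, Camp, Retnlg and Lyz2) and 4 were globins (Hbb-bs, Hbb-bt, Hba-a1 and Hba-a2). The remaining ones were Tmsb4x (thymosin beta 4, an actin-binding peptide) at 3441, B2m (the light chain of MHC class I) at 2306 and Rgcc at 1846 CPM per kb, and Gm10800, a predicted gene, at 4270. Of the 100 highest genes of any type, 10 were on the neutrophil list, 8 on the osteoblast list, 4 each on the erythroid and mitochondrial lists and 2 on the osteocyte list, while 65 were on none. Of these 100 genes 84 were protein-coding. The highest of the others were Gm23935 at 7296 and mt-Rnr2 (a ribosomal RNA of the mitochondrion) at 4632 CPM per kb. Next came CT010467.1 (annotated as rRNA) at 4295, Igkc (the constant part of the kappa light chain) at 1139 and Mir6236 at 786. Gm23935 and Mir6236, annotated as miRNA, have exon lengths of 57 and 123 bases, shorter than a read, so dividing by length lifts them. By CPM alone they ranked 331 and 2097. Of the stretches of CT010467.1 as long as a read, 46.3% recur in another gene, AY036118.

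**Figure D1:**
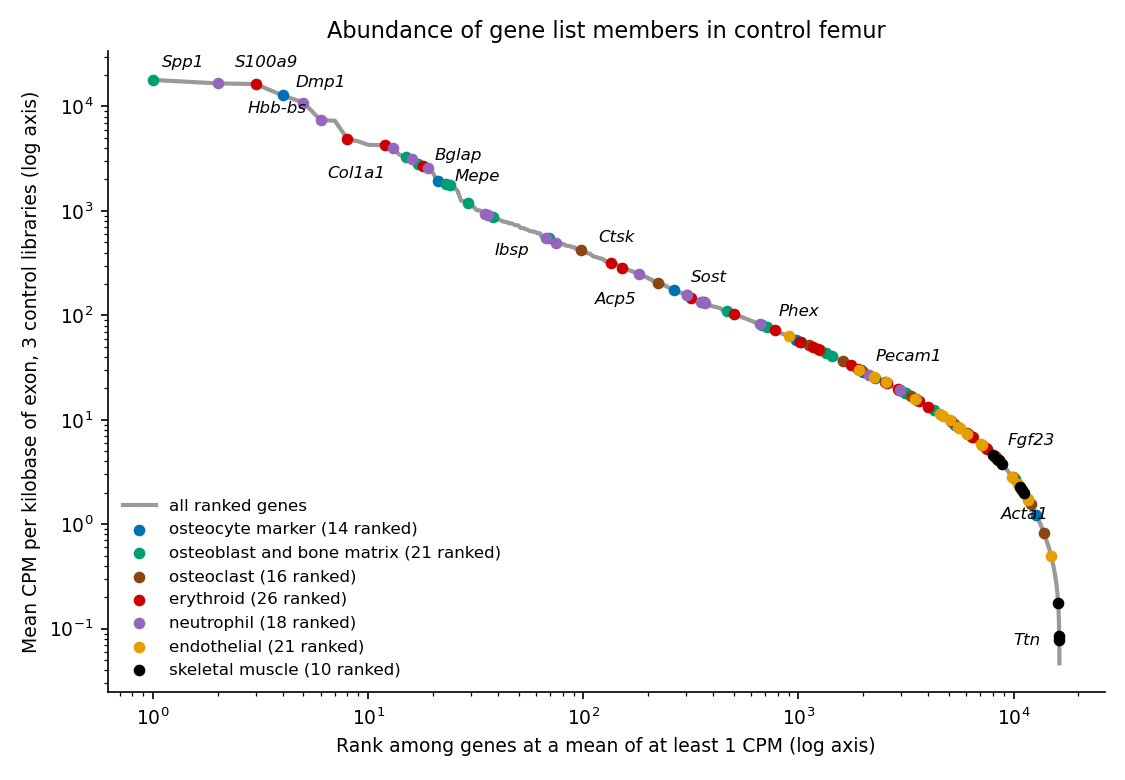
Mean CPM per kilobase of exon over the 3 control libraries (vertical, log axis) against rank (horizontal, log axis). The grey line is every ranked gene and coloured points are members of 7 lists; bone, neutrophil and erythroid members fill the upper left, endothelial members lie lower, and the 10 ranked skeletal muscle members lie at the lower right.

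Ranks leaned on the gene length used. Col1a1 ranked 15 by the union of its exons, 17 by its longest annotated transcript and 1 by the median length of its transcripts. Col1a2 ranked 23, 14 and 7, Dmp1 4, 5 and 6, Spp1 1, 2 and 3, and Bglap 17, 16 and 20 in the same order. Sost moved from rank 265 to 351 and 963. These 3 measures of length left Spp1, Dmp1, S100a9 and Hbb-bs among the 6 highest genes in each case.

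Among the leading bone genes are 4 neighbours, and their promoters are shown here because their transcripts made up so much of the libraries. Dmp1, Ibsp (bone sialoprotein), Mepe and Spp1 lie in that order on the plus strand of chromosome 5, in the stretch chr5:104202613-104441050 (GRCm38). This stretch of 238 kb held 6 of the deposited gene rows, 5 of them at a mean of at least 1 CPM, and took 7.60%, 7.12% and 4.37% of all gene counts in control 1, 2 and 4. The mean was 6.36% ± 1.75 (SD, n = 3), and control 4 lay below the other two. All 4 genes encode acidic secreted proteins of mineralised tissue. The remaining row past 1 CPM, Gm42793, overlaps Spp1, and 4.05% of the read-length stretches of Spp1 recur in it.

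The 120 bases before the RefSeq start site (build GRCm38.p6, each written 5′ to 3′ on the strand of the gene) are given for 6 bone genes, with capitals marking the hexamers TATAAA and TTTAAA, the letters around which basal transcription can assemble. Windows were chr5:104202497-104202616 for Dmp1, chr5:104434991-104435110 for Spp1, chr5:104325209-104325328 for Mepe, chr11:101967016-101967135 (minus strand) for Sost, chrX:157415287-157415406 (minus strand) for Phex and chr3:88384467-88384586 (minus strand) for Bglap.
Dmp1: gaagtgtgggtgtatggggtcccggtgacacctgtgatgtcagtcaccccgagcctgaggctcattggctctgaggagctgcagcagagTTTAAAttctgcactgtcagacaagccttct
Spp1: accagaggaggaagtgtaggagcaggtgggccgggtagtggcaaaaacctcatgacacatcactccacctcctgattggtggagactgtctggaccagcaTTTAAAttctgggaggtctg
Mepe: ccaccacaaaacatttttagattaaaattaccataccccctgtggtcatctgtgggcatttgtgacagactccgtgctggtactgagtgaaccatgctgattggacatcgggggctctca
Sost: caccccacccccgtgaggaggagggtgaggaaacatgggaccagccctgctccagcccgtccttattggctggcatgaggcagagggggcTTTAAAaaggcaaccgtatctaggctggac
Phex: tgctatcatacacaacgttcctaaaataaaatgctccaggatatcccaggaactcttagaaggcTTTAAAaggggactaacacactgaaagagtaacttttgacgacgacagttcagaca
Bglap: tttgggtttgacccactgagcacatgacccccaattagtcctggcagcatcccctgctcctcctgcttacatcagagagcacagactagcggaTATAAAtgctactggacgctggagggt

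Counted back from the start site, the first base of the match stood at -31 in Dmp1, -20 in Spp1, -30 in Sost, -56 in Phex and -27 in Bglap, and Mepe held neither hexamer in this window. Searched on both strands (TTTAAA reads the same on each), TTTAAA was found in 5 of 12 osteocyte marker promoters in the table and in 4.78% of all 20594 promoters of this length. TATAAA was found in 2 of the same 12 and in 6.46% of all. These counts take any position in the window. Either hexamer on the sense strand, starting 20 to 40 bases before the start site, was found in 3 of the 12 and in 3.90% of all. The search for TTTAAA was made after these sequences had been read, and a match is a description of letters and not of a bound site. The letters AACCACA, which RUNX factors can bind, were found on either strand in 0 of 12 osteocyte and 2 of 13 osteoblast promoters, against 1.94% of all. Absence from this window says nothing of the factors themselves.

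Osteocyte markers were present in every library: all 14 list members, and all 4 defining ones, reached 1 CPM in each, a mark that 53% of the deposited gene rows reached. Together they held 4.54%, 4.48% and 2.32% of gene counts in control 1, 2 and 4, and Dmp1 alone made up 85.6% of their summed CPM. Dmp1, which encodes an acidic matrix protein that guides mineral deposition, stood at 44098, 42302 and 19363 CPM. Control 1 and 2 were thus alike, control 4 lay 2.28 times below control 1, and the mean was 35254 ± 13792 CPM (SD, n = 3).

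Phex, an endopeptidase gene whose loss gives phosphate wasting, stood at 738, 475 and 324 CPM in control 1, 2 and 4. Mepe, a matrix phosphoglycoprotein, stood at 4069, 2842 and 2746 CPM. Both were highest in control 1 and lowest in control 4, as were 8 of the 14 members (28.1% of all genes at a mean of at least 5 CPM had this order, and 38.7% had control 4 lowest). The same order held for Pdpn (podoplanin, a marker of the embedding osteocyte) at 318, 253 and 153 CPM and for Cd109 at 548, 352 and 240 CPM.

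Sost ran the other way, at 308, 260 and 507 CPM in control 1, 2 and 4. Fgf23, the phosphate-lowering hormone of osteocytes, stood at 6.57, 7.73 and 9.57 CPM and was likewise highest in control 4, though its counting intervals overlapped between control 1 (5.07 to 8.37, exact Poisson 95%) and control 4 (8.04 to 11.3). Dkk1, another secreted Wnt inhibitor, gave 73.3, 57.6 and 79.6 CPM. These were the 3 osteocyte members with their highest value in control 4, and the other 11 had it in control 1, beside 37.7% and 43.4% of all genes (18.9% in control 2). Without the TMM step the number in control 1 was 10, beside 30.6% of all genes. The ratio of Sost to Dmp1 was 0.00699, 0.00615 and 0.0262, so the balance of these osteocyte genes differed more between libraries than either gene did.

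The narrowest members of the list were Fam20c, the kinase that phosphorylates secreted matrix proteins (414, 364 and 377 CPM), Fbln7 (67.2, 57.4 and 61.5 CPM) and Irx5 (54.0, 46.3 and 45.7 CPM). Their highest library exceeded the lowest by 1.14, 1.17 and 1.18 times. At the other end, 4 of the 14 members (Dmp1, Phex, Pdpn and Cd109) had a ratio of highest to lowest library of at least 2. Among all 11506 genes at a mean of at least 5 CPM, 5.66% had such a ratio and the median ratio was 1.29. Ackr3, a scavenging chemokine receptor, stood at 598, 548 and 416 CPM, Ptprz1 at 165, 117 and 98.6 CPM, and Kcnk2, a stretch-sensitive potassium channel, at 8.08, 4.87 and 5.13 CPM.

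Per length, the span inside the osteocyte list was wide. It ran from 12755 CPM per kb for Dmp1 through 1914 for Mepe, 173 for Sost and 81.5 for Phex to 4.39 for Fgf23 and 1.22 for Kcnk2, at ranks 4, 21, 265, 674, 8239 and 12758. By union exon length Fgf23, the gene of the circulating hormone, therefore lay close to the median of ranked genes. It ranked lower, at 9204 by its longest transcript and 11161 by the median length of its transcripts. Of the 14 members, 7 stood among the 1000 highest of the 16337 ranked genes.

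**Figure D2:**
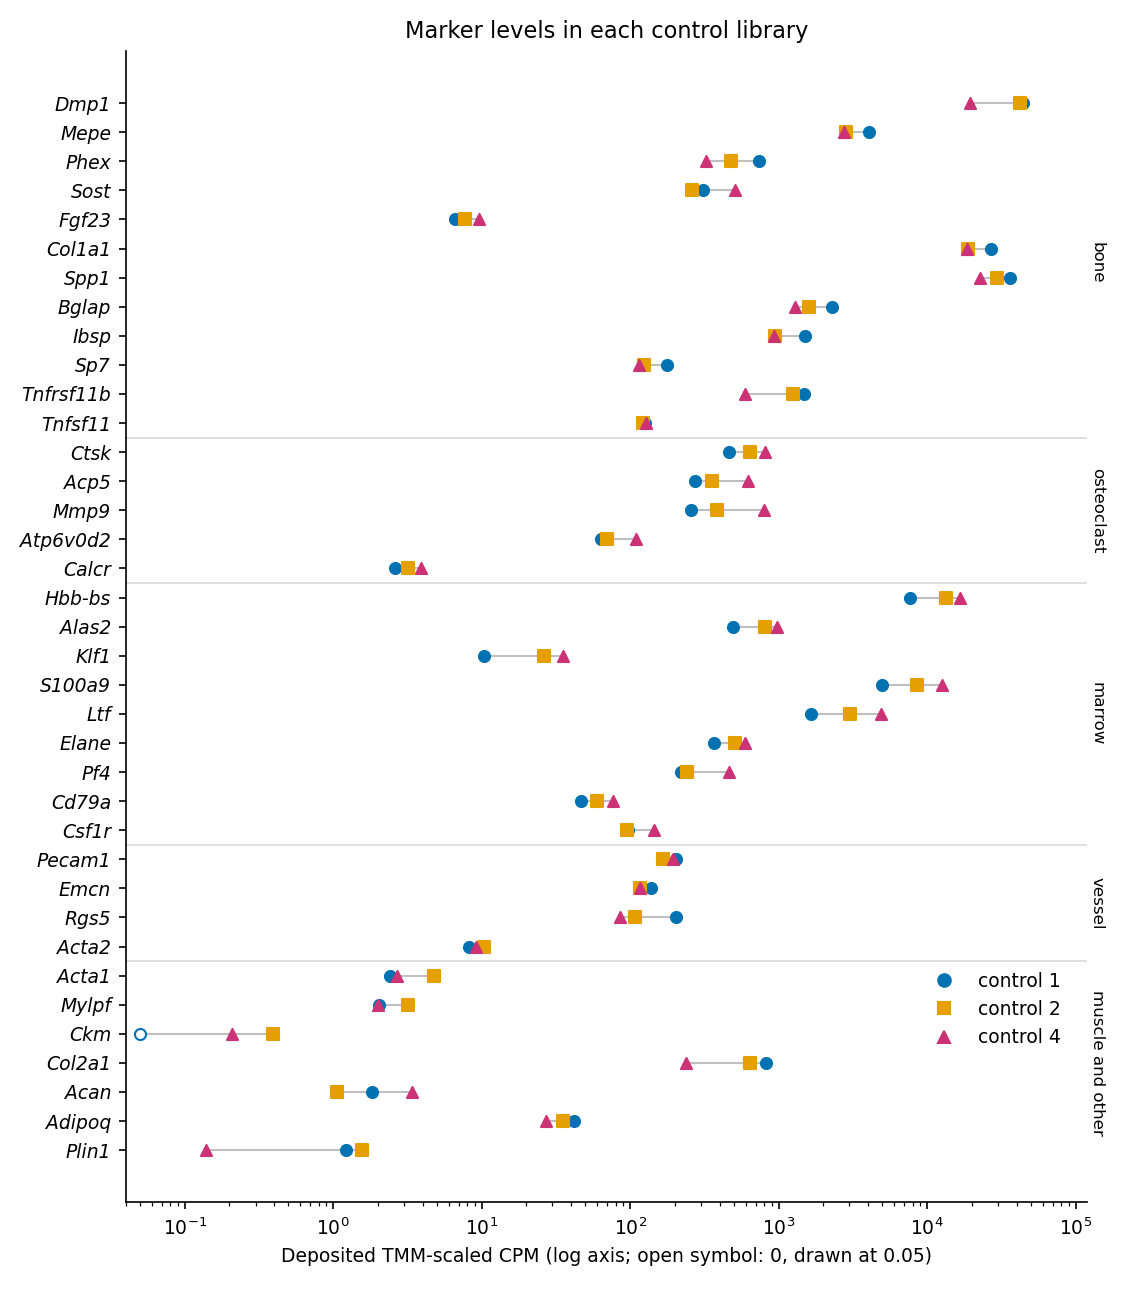
Deposited TMM-scaled CPM (horizontal, log axis) of 37 marker genes in the 3 control libraries, one symbol per library, with a grey line from the lowest to the highest. Control 4 is the lowest for Dmp1, Phex and Tnfrsf11b and the highest for osteoclast and marrow genes, and Ckm at 0 in control 1 is drawn as an open symbol at 0.05.

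Genes of the bone matrix and the osteoblast held the largest summed share of gene counts of any list. The share was 9.66%, 7.49% and 7.05% in control 1, 2 and 4 (mean 8.07% ± 1.39, SD, n = 3). Shares of counts rise with gene length and with the number of members. Per kb, the median member of this list stood at 43.6 CPM, beside 523 for the neutrophil and 56.8 for the osteocyte list. All 21 members reached 1 CPM in every library, beside 53% of the deposited gene rows. None had a ratio of highest to lowest library of at least 2, beside 5.66% of all genes at a mean of 5 CPM. The median ratio of the list was 1.53, wider than the 1.29 of all genes. The collagen I genes came first. Col1a1 stood at 27040, 18763 and 18625 CPM and Col1a2 at 28999, 18992 and 19699 CPM. Control 1 was above the other two for both chains, and the ratio of Col1a1 to Col1a2 was 0.955 ± 0.029 (SD, n = 3).

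Spp1 stood at 36346, 29686 and 22789 CPM, Sparc (osteonectin, a collagen-binding glycoprotein) at 8438, 5774 and 5980 CPM, and Ibsp, which nucleates mineral, at 1506, 951 and 927 CPM. Control 1 was the highest library for each, as for 18 of the 21 members, where control 1 was the highest for 43.4% of all genes. The exceptions were Mmp13 (collagenase 3), at 2139, 2018 and 2887 CPM and highest in control 4, Dlx5 (20.9, 19.0 and 22.0 CPM) and Dlx3 (44.6, 52.2 and 46.0 CPM). In CPM without the TMM step control 1 was the highest for 30.6%, control 2 for 24.9% and control 4 for 44.5% of all genes, and for the same number of these members, 18 of 21. With totals that omit the 20 most abundant genes these shares of all genes were 30.9%, 26.3% and 42.8%.

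Transcription factors of the lineage were far lower than the 3272 CPM per kb of Col1a1. Runx2, the factor that commits cells to the lineage, stood at 73.2, 64.5 and 54.8 CPM (7.26 CPM per kb) and Sp7 (osterix) at 177, 124 and 115 CPM (40.8 CPM per kb). Alpl, the alkaline phosphatase that frees phosphate for mineral, was steady at 346, 287 and 306 CPM, and Pth1r, the receptor for parathyroid hormone, stood at 82.2, 72.1 and 68.2 CPM. The widest member was Ifitm5, a membrane protein of mineralising osteoblasts, at 18.2, 13.6 and 9.29 CPM, a ratio of 1.96.

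Osteocalcin, the small vitamin K-dependent protein of bone, is encoded in the mouse by a cluster of near-identical genes, and the coding sequences of Bglap and Bglap2 are shown because they limit what counts can tell. Bglap lies at chr3:88383501-88384464 and Bglap2 at chr3:88377736-88378699, both on the minus strand of GRCm38. Their coding sequences in GENCODE M21, each 288 bases long, differ at 4 bases, which are in capitals.
Bglap: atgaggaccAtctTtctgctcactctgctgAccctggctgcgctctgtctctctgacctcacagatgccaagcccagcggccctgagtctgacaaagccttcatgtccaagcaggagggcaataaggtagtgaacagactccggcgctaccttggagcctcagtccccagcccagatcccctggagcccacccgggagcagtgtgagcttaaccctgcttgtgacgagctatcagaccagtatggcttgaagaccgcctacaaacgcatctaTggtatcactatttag
Bglap2: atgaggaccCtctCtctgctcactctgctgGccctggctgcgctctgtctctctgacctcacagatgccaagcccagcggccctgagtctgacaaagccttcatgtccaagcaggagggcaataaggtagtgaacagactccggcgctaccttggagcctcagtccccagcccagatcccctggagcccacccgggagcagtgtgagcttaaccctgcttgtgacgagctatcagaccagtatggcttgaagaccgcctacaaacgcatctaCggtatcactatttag

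Of all stretches of 126 bases in the Bglap transcript, the length of a read, 44.4% also occurred in Bglap2, and 40.5% of those in Bglap2 occurred in Bglap. Bglap stood at 2276, 1596 and 1298 CPM in control 1, 2 and 4 and Bglap2 at 700, 547 and 445 CPM. The ratio of Bglap2 to Bglap was 0.308, 0.342 and 0.343. The sources used here do not say how a read that matches both genes was counted. The division between the 2 genes is therefore uncertain, while both have the same order of libraries. Bglap3, whose coding sequence differs from Bglap at 13 of 288 bases, stood at only 8.59, 7.34 and 5.41 CPM.

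Factors by which bone cells steer resorption, vessels and mineral formed the remodelling and phosphate list. All 15 members reached 1 CPM in every library, beside 53% of the deposited gene rows. Tnfrsf11b, which encodes osteoprotegerin, the decoy receptor that blocks osteoclast formation, stood at 1490, 1251 and 594 CPM in control 1, 2 and 4. Tnfsf11, the gene of its target RANKL, the ligand that drives osteoclast formation, stood at 126, 122 and 128 CPM. The ligand was thus level while the decoy receptor was lower in control 4, and the ratio of ligand to decoy was 0.0849, 0.0977 and 0.215. A ratio of highest to lowest library as narrow as the 1.05 of Tnfsf11 was reached by 2.95% of genes. Csf1, the other growth factor that osteoclast precursors need, was also narrow at 291, 256 and 257 CPM.

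Vegfa, the main growth factor for vessels, was the most abundant member by CPM at 1739, 1401 and 873 CPM. Bmp2, an inducer of bone formation, stood at 881, 715 and 547 CPM, Tgfb1 at 456, 446 and 288 CPM, and Enpp1 and Ank, which set extracellular pyrophosphate, at 304, 288 and 161 CPM and at 505, 502 and 295 CPM. Control 4 was the lowest library for all 5, as for 8 of the 14 members at a mean of 5 CPM (38.7% of all genes). The secreted Wnt inhibitors Wif1 (669, 517 and 538 CPM) and Sfrp4 (533, 514 and 440 CPM) varied less. Galnt3, which glycosylates FGF23, stood at 33.7, 32.3 and 18.6 CPM, and the phosphate carriers Slc20a1 and Slc20a2 at 60.3, 70.1 and 62.0 CPM and at 22.4, 16.6 and 21.5 CPM. Control 1 was the highest for 11 of 14 members at a mean of 5 CPM, beside 43.4% of all genes. In CPM without the TMM step the number was 5, with 7 in control 2, beside 30.6% and 24.9% of all genes.

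Gja1, the gene of connexin 43, which joins osteocyte processes, was abundant at 4244, 3334 and 2561 CPM. Cd44, a hyaluronan receptor concentrated on osteocytes, stood at 2841, 2066 and 1522 CPM, the mechanosensitive channel gene Piezo1 at 261, 202 and 173 CPM, and Mmp14, a membrane protease needed for process growth, at 459, 412 and 410 CPM. Each of these was highest in control 1 and lowest in control 4, as were 5 of the 10 members at a mean of 5 CPM, against 28.1% of all genes. Lrp4, the receptor that anchors sclerostin, stood at 29.5, 31.2 and 20.2 CPM and its fellow Wnt co-receptors Lrp5 and Lrp6 at 10.5, 6.67 and 6.86 CPM and at 91.1, 61.9 and 48.2 CPM. Ostn (osteocrin, a peptide of young bone cells) was near the floor at 1.82, 0.728 and 0.970 CPM.

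Osteoclast genes took a small share, 0.185%, 0.226% and 0.316% of gene counts in control 1, 2 and 4. All 4 defining members, and 16 of the 17 members, reached 1 CPM in every library, beside 53% of the deposited gene rows. Ctsk, the protease that digests collagen in the resorption pit, stood at 462, 638 and 810 CPM. Acp5, the tartrate-resistant acid phosphatase used to stain osteoclasts, stood at 275, 357 and 620 CPM, and Mmp9 (gelatinase B, which neutrophils also make) at 259, 382 and 793 CPM. All 3 had control 1 lowest and control 4 highest, as 11 of the 15 members at a mean of 5 CPM did, against 23.7% of all genes. The ratio of Acp5 to Col1a1 was 0.0102, 0.0190 and 0.0333.

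Membrane and fusion genes that are more restricted to osteoclasts stood below Ctsk, Acp5 and Mmp9, which gave 421, 206 and 135 CPM per kb. Per kb, Atp6v0d2 gave 29.7 CPM, Dcstamp 4.48, Oscar 4.33, Ocstamp 1.56 and Calcr 0.827, beside 4.48 for the median ranked gene. Atp6v0d2, a proton pump subunit, stood at 63.3, 69.6 and 109 CPM, Dcstamp and Ocstamp, which are needed for cell fusion, at 7.07, 10.6 and 18.1 CPM and at 4.04, 5.10 and 7.97 CPM, and Oscar, an immunoreceptor, at 4.65, 7.56 and 11.8 CPM. Calcr, the calcitonin receptor gene, stood at 2.63, 3.19 and 3.88 CPM, with an exact Poisson 95% interval of 1.72 to 3.85 in control 1 and 2.93 to 5.04 in control 4. The 4 members without this order were Nfatc1 (429, 360 and 258 CPM) and Slc4a2 (59.3, 58.3 and 51.9 CPM), both highest in control 1, and Itgb3 (312, 279 and 322 CPM) and Jdp2 (72.9, 65.5 and 96.7 CPM), both lowest in control 2. Of the 15 members 4, namely Acp5, Mmp9, Dcstamp and Oscar, had a ratio of at least 2, against 5.66% of all genes.

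Transcripts of the red cell lineage held 1.35%, 2.54% and 3.19% of gene counts in control 1, 2 and 4. All 26 matched members reached 5 CPM on average, beside 11506 of the 28526 deposited gene rows. Control 4 was the highest library for all 26 and control 1 the lowest for all 26, where the same order was seen in 23.7% of all genes. Control 4 was the highest for 26 of 26 also with each of the other scalings. Hbb-bs stood at 7696, 13429 and 16656 CPM, and Hba-a1, adult alpha-globin, at 2051, 3701 and 4638 CPM. Alas2, which starts haem synthesis in red cell precursors, stood at 492, 807 and 972 CPM, and Slc4a1, the band 3 anion exchanger of the red cell membrane, at 314, 512 and 701 CPM.

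Globin levels went together. The ratio of control 4 to control 1 lay between 2.16 and 2.47 for the 4 globin genes, and the ratio of Hbb-bs to Hba-a1 was 3.66 ± 0.084 (SD, n = 3). Within each pair of globins the counts cannot be divided with confidence, since Hbb-bs and Hbb-bt differ at 1 of 444 coding bases, Hba-a1 and Hba-a2 at 1 of 429, and 50.5% to 67.6% of the read-length stretches of each gene recur in its partner.

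Genes that red cell precursors use were among the members. Klf1, the activator of adult beta-globin, had the widest range of the list at 10.4, 26.2 and 35.6 CPM, a ratio of 3.42. Gata1 stood at 10.7, 15.8 and 26.6 CPM, Epor, the erythropoietin receptor gene, at 8.99, 13.7 and 18.3 CPM, and Rhd at 42.1, 94.7 and 129 CPM. The narrowest member was Tfrc, the transferrin receptor gene that dividing cells in general use, at 254, 313 and 315 CPM. The ratio reached 2 in 18 of the 26 members, against 5.66% of all genes at a mean of 5 CPM.

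Neutrophil genes held 2.18%, 3.98% and 5.61% of gene counts in control 1, 2 and 4. Control 1 was the lowest library for all 18 members and control 4 the highest for 17, the exception being Fcnb (117, 230 and 197 CPM). The order with control 1 lowest and control 4 highest was seen in 23.7% of all genes. A ratio of at least 2 was found in 13 of the 18 members and in 5.66% of all genes. S100a9 stood at 4988, 8549 and 12515 CPM, S100a8 at 4733, 7874 and 10103 CPM and Ngp (neutrophilic granule protein) at 5256, 9156 and 12800.4 CPM. Neutrophil genes made up 3.92% ± 1.71 of counts and erythroid genes 2.36% ± 0.933, beside 3.78% ± 1.26 for the osteocyte markers (SD, n = 3). These shares depend on gene length and list size, so they do not compare cell content. Per kb, the list medians were 523 CPM for neutrophil, 32.0 for erythroid and 56.8 for osteocyte genes.

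Granule genes can be set side by side by the stage at which they are made. Among genes of the primary granules, which form in promyelocytes, Elane (neutrophil elastase) stood at 365, 511 and 593 CPM, Mpo (myeloperoxidase) at 620, 896 and 1046 CPM, Ctsg at 109, 134 and 164 CPM and Prtn3 at 99.7, 142 and 187 CPM. Their ratio of control 4 to control 1 lay between 1.51 and 1.87. Among genes of the secondary and tertiary granules, which form later, Ltf (lactoferrin) stood at 1646, 3041 and 4908 CPM, Camp (cathelicidin) at 1584, 3118 and 4352 CPM, Lcn2 (lipocalin 2) at 625, 1515 and 2180 CPM and Mmp8 at 167, 380 and 589 CPM. With Ngp, these 5 genes had ratios of control 4 to control 1 between 2.44 and 3.52. These 9 genes were picked by granule type, no test compared them, and other granule genes of the list lay between the sets, such as Lyz2 with a ratio of 2.01 and Chil3 with 2.26.

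Megakaryocyte and platelet genes set control 4 apart from both others. Pf4 (platelet factor 4) stood at 220, 240 and 464 CPM in control 1, 2 and 4, Ppbp at 258, 310 and 599 CPM, and Itga2b, the platelet integrin alpha IIb, at 73.9, 74.8 and 171 CPM. Control 4 was the highest for 12 of the 12 members at a mean of 5 CPM (37.7% of all genes), and 10 of them had a ratio of at least 2 (5.66% of all genes). Tubb1 (the platelet beta-tubulin) was the widest at 13.8, 16.6 and 47.7 CPM. For Pf4, Ppbp and Itga2b control 2 lay close to control 1, whereas for the globins it lay nearer to control 4. Gp1bb, at 0.303, 0.336 and 0.485 CPM, shares 92.5% of its read-length stretches with other genes and is not read further.

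**Figure D3:**
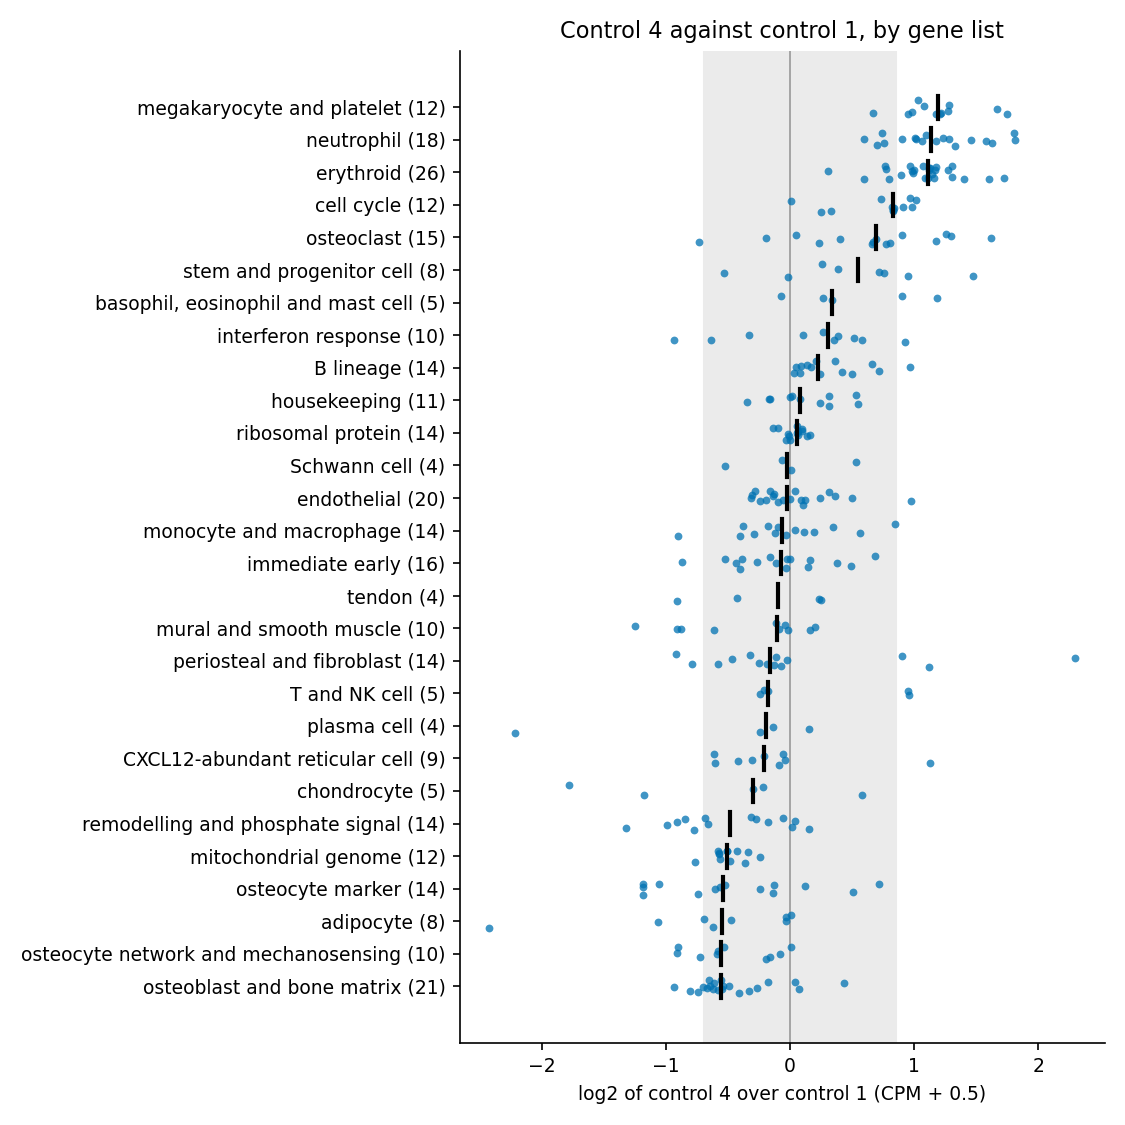
Log2 of control 4 over control 1, each with 0.5 CPM added (horizontal), for members at a mean of at least 5 CPM; each point is a gene, black bars are list medians and numbers in brackets are members shown. The grey band spans the 5th to 95th percentile of all 11506 genes, -0.69 to 0.85; the megakaryocyte, neutrophil and erythroid medians lie above it and the bone lists on the left within it.

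Seen as log2 of control 4 over control 1, with 0.5 CPM added to each, the median of all 11506 genes was -0.04. The medians were 1.19 for the megakaryocyte, 1.13 for the neutrophil and 1.11 for the erythroid list, 0.83 for cell cycle genes and 0.69 for osteoclast genes. They were -0.54 for the osteocyte, -0.56 for the osteoblast and -0.49 for the remodelling list. CPM without the TMM step moved the median of all genes by 0.106, and these 8 lists kept their directions there. The bone and marrow shares are parts of one total, and whether the lower share of one follows from the higher share of the other cannot be told apart in these values.

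Of 12 cell cycle genes, 11 were highest in control 4, against 37.7% of all genes. Mki67, the proliferation antigen, stood at 140, 237 and 234 CPM, being the exception, Top2a at 110, 180 and 197 CPM, Ccna2 at 52.5, 94.2 and 107 CPM and Rrm2, the ribonucleotide reductase subunit of dividing cells, at 86.0, 123 and 168 CPM. Pcna, which also serves repair, was level at 164, 155 and 165 CPM.

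Monocyte and macrophage genes lay near the shares of all genes. The marrow order, control 1 lowest and control 4 highest, was seen in 4 of 14 members at a mean of 5 CPM and in 23.7% of all genes. None of the 14 had a ratio of at least 2, beside 5.66% of all genes. The highest library was control 1 for 6, control 2 for 3 and control 4 for 5, beside 43.4%, 18.9% and 37.7% of all genes. Without the TMM step these counts were 3, 4 and 7, beside 30.6%, 24.9% and 44.5%. Csf1r, the receptor for CSF1, stood at 97.5, 95.2 and 144 CPM, Cd68 at 89.6, 101 and 114 CPM and Adgre1, which encodes F4/80, at 44.1, 54.8 and 45.3 CPM. The complement genes of resident macrophages varied little: C1qb stood at 103, 98.9 and 101 CPM, C1qc at 54.7, 57.6 and 59.2 CPM and C1qa at 46.0, 40.5 and 43.0 CPM. Ly6c2, which marks monocytes and was the most abundant member, stood at 180, 288 and 324 CPM and followed the neutrophil order.

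B lineage genes were low, at 0.0299% to 0.0417% of gene counts. A ratio of at least 2 was reached by 0 of 14 members, beside 5.66% of all genes, and the median ratio was 1.33 against 1.29 for all genes. Cd79a and Cd79b, which signal for the B cell receptor, stood at 46.7, 59.4 and 76.8 CPM and at 42.0, 52.2 and 59.4 CPM. Vpreb3 (18.0, 29.6 and 35.6 CPM), Igll1 (19.8, 16.5 and 21.1 CPM), Dntt (11.4, 9.58 and 15.4 CPM) and Rag1 (4.55, 6.89 and 5.48 CPM), which mark immature stages, were all present. T and NK cell genes were lower still. Cd3e, Cd3d and Cd3g stayed between 1.12 and 3.31 CPM in every library, while Nkg7, which some myeloid cells also use, stood at 37.4, 59.6 and 72.5 CPM.

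Antibody genes stood apart from every other group. Jchain, which links IgA and IgM into polymers in plasma cells, stood at 417, 61.2 and 89.2 CPM in control 1, 2 and 4. The light chain gene Igkc stood at 1288, 210 and 320 CPM. Immunoglobulin genes together held 0.404% of gene counts in control 1, 0.101% in control 2 and 0.137% in control 4. Of the 14 B lineage genes at a mean of 5 CPM, control 1 was the lowest library for 9 and the highest for 0. Among all genes it was the lowest for 32% and the highest for 43.4%.

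Constant genes held 0.275%, 0.0726% and 0.0984% of gene counts, and variable segments were among the widest genes. Igkv4-72 stood at 143, 0.784 and 0.970 CPM, Igkv8-30 at 131, 0.952 and 1.18 CPM and Ighv1-9 at 64.9, 2.91 and 0.555 CPM, so that control 1 held nearly all of their reads. Igkv12-44 (58.9, 1.34 and 0.970 CPM), Igkv19-93 (115, 8.63 and 5.96 CPM) and Ighv6-3 (63.9, 14.2 and 1.87 CPM) had the same order at the top. Ighg2b, the constant gene of an IgG class, was instead highest in control 4, at 3.74, 22.2 and 79.0 CPM. Of 49 immunoglobulin genes at a mean of 5 CPM, 46 had a ratio of at least 2 (93.9%, against 5.66% of all genes), and 35 of these 46 were highest in control 1. Near-identical segments can share reads, so values of single segments are uncertain.

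Among the 7165 genes at a mean of at least 20 CPM, 273 had a ratio of at least 2 and 11 of at least 5, of which 9 were immunoglobulin genes. The other two were Jchain and Cfd, and the 10 widest genes by the naming rule were Igkv4-72, Igkv8-30, Ighv1-9, Igkv12-44, Ighv6-3, Ighg2b, Igkv19-93, Jchain, Igkc and Cfd. Other plasma cell genes spread less than Jchain where they passed a mean of 5 CPM. Of these 4 genes, Jchain included, 3 were highest in control 1 (43.4% of all genes) and all 4 lowest in control 2 (29.3%). Xbp1, which secretory cells of many kinds use, stood at 529, 469 and 480 CPM, Prdm1, a factor that turns B cells into plasma cells, at 37.4, 27.7 and 31.5 CPM and Sdc1 at 90.1, 73.7 and 100 CPM. Below that mean Derl3 stood at 2.93, 0.504 and 2.15 CPM and Mzb1, a defining gene, at 0.707, 0.616 and 1.59 CPM. Tnfrsf17, also defining, had 5, 1 and 1 counts. Of the Mzb1 stretches 73.3% recur in another gene.

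Vessel genes were present at moderate levels. All 21 endothelial members reached 1 CPM in every library, beside 53% of the deposited gene rows. The sum of these members took 0.0938%, 0.0845% and 0.0996% of gene counts in control 1, 2 and 4. Pecam1 (CD31), the most abundant, stood at 203, 166 and 195 CPM. Emcn (endomucin, strong on the capillaries of growing bone) stood at 137, 116 and 116 CPM, Cdh5 (VE-cadherin) at 51.4, 40.7 and 45.8 CPM and Kdr, a VEGF receptor gene, at 59.8, 45.1 and 54.3 CPM. Only Bmx of 20 members had a ratio of at least 2 (5.05, 7.23 and 10.4 CPM), near the 5.66% of all genes, and the median ratio was 1.29 for the list as for all genes.

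Genes of sinusoids, arteries and lymphatics can be set beside each other per length. Plvap, of fenestrated endothelium, stood at 63.2 ± 9.41 CPM per kb (SD, n = 3), Stab2, of sinusoids, at 2.27 ± 0.326, Flt4, of sinusoids and lymphatics, at 2.86 ± 0.326, and Gja5, of arteries, at 0.502 ± 0.0677 CPM per kb. Pecam1 gave 30.2 ± 3.15 on this scale. The distances between these genes depend on the length used. By the median length of transcripts Plvap moved from rank 906 to 2750, Stab2 from 10733 to 5103 and Flt4 from 9876 to 10919. The highest endothelial library was control 1 for 9 members, control 2 for 3 and control 4 for 8, beside 43.4%, 18.9% and 37.7% of all genes. The list median of log2 control 4 over control 1 was -0.03 and became 0.08 without the TMM step.

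Mural cells were represented unevenly. Rgs5, a pericyte gene, stood at 204, 107 and 85.3 CPM and Cspg4 (NG2), which chondroid and bone cells also use, at 340, 275 and 181 CPM, both highest in control 1. Pdgfrb, Mcam, Kcnj8 and Abcc9 varied by 1.33 times or less, with Mcam at 37.0, 36.7 and 35.8 CPM. Contractile smooth muscle genes were scarce: Acta2 stood at 8.18, 10.4 and 9.22 CPM, Myh11 at 7.07, 7.28 and 3.60 CPM and Tagln at 0.505, 0.448 and 0.347 CPM.

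Skeletal muscle left little trace. Of 29 muscle genes, 10 reached 1 CPM in every library, beside 53% of the deposited gene rows. A mean of 5 CPM was reached by 3 of them, beside 11506 of the 28526 deposited gene rows. The sum of the 29 took 0.00497%, 0.00571% and 0.00600% of gene counts. Acta1, skeletal alpha-actin, had 24, 85 and 39 counts in control 1, 2 and 4. Mylpf, a fast myosin light chain, stood at 2.02, 3.19 and 2.01 CPM. Ckm, muscle creatine kinase, had 0, 7 and 3 counts, or 0, 0.392 and 0.208 CPM, and Myh4, the fast myosin of limb muscle, 5, 9 and 2 counts. Tnnc2 had 0 counts in all 3 libraries, which allows up to 0.303, 0.168 and 0.208 CPM at 3 counts each.

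The muscle members that did reach 5 CPM were Pygm (14.6, 10.03 and 15.2 CPM), Eno3 (7.68, 4.71 and 7.35 CPM) and Ttn (7.27, 15.0 and 7.28 CPM). Atp2a1, the calcium pump of fast fibres, stood at 0.303, 0.504 and 1.32 CPM. The muscle stem cell genes Pax7, Myod1 and Myf5 had 0 to 6 counts per library. Genes of distant tissues were also low. The sum was 1.52, 3.36 and 2.84 CPM for 9 hepatocyte genes and 4.04, 3.75 and 4.51 CPM for 6 neuronal genes. For the 29 muscle genes it was 56.4, 60.8 and 63.0 CPM. The defining keratinocyte genes Krt5 and Krt14 had 0 to 2 counts per library. Krt10, also of the keratinocyte list, was higher at 6.97, 4.37 and 5.06 CPM.

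Cartilage genes were split. Col2a1, the main collagen of cartilage, stood at 818, 639 and 237 CPM in control 1, 2 and 4, and Col11a1 at 529, 400 and 234 CPM. The other two defining genes of the list were near the floor: Acan, the large cartilage proteoglycan, stood at 1.82, 1.06 and 3.40 CPM and Col10a1, of hypertrophic cartilage, at 2.22, 1.06 and 3.19 CPM. Col2a1 and Col11a1 shared the library order of Dmp1, while Acan and Col10a1 were highest in control 4. Sox9 stood at 42.6, 33.1 and 34.5 CPM, and Col9a1, Matn1 and Cnmd were all at 2.01 CPM or less in every library.

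Genes of marrow stroma were present at moderate levels. Cxcl12, the chemokine of reticular cells that holds blood stem cells in their niche, stood at 742, 570 and 713 CPM, Lepr, the leptin receptor gene that marks these cells, at 125, 102 and 117 CPM and Kitl at 131, 112 and 85.5 CPM. Of 9 members at a mean of 5 CPM, only Hp (haptoglobin) had a ratio of at least 2, beside 5.66% of all genes. Hp stood at 253, 382 and 556 CPM, the order of the neutrophil genes, and neutrophils also use it.

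Adipocyte genes were present in part. Adipoq (adiponectin) stood at 42.1, 35.4 and 27.2 CPM and Cfd (adipsin) at 50.9, 30.2 and 9.08 CPM, with Cfd the widest member at a ratio of 5.61. The lipid droplet gene Plin1, also defining, was at 1.21, 1.57 and 0.139 CPM, and Lep, the leptin gene, at 0.101, 1.29 and 0.277 CPM. Car3 (422, 275 and 202 CPM) and Fabp4 (394, 228 and 244 CPM, also used by endothelium) took most of the summed level.

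Periosteal and fibroblast genes held 0.298% to 0.374% of gene counts. Dcn (decorin) stood at 1484, 1049 and 784 CPM and Lum (lumican) at 1024, 770 and 898 CPM. Postn (periostin), defining for the list, stood at 458, 337 and 366 CPM and was highest in control 1, whereas Col3a1, the other defining gene, stood at 215, 198 and 402 CPM. Pi16, of a perivascular fibroblast type, was the widest at 3.33, 13.1 and 18.4 CPM, and Aspn (asporin) stood at 23.9, 18.0 and 52.6 CPM. Tendon genes were low, with Scx at 2.22, 1.01 and 1.87 CPM and Tnmd at 11.8, 5.32 and 6.03 CPM.

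Immediate early genes, which are switched on fast by many stimuli, tissue handling among them, were high. They held 0.754% to 0.806% of gene counts. All 16 members passed a mean of 5 CPM, beside 11506 of the 28526 deposited gene rows. None of the 16 had a ratio of at least 2, beside 5.66% of all genes. Their median ratio was 1.36, against 1.29 for all genes. Egr1 stood at 1695, 1390 and 1297 CPM, Ier3 at 1611, 1368 and 1193 CPM, Junb at 1153, 1101 and 1133 CPM and Fos at 759, 639 and 1066 CPM. Per length, Ier3 reached 1230 CPM per kb and rank 28. The level that such genes have in undisturbed bone was not measured.

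Housekeeping and ribosomal genes set a scale for this spread. The 14 ribosomal protein genes had a median ratio of highest to lowest library of 1.07, with Rpl4 at 563, 550 and 559 CPM and Rplp0 at 598, 570 and 583 CPM. Some share sequence with other genes: 52.0% of the read-length stretches of Rps2 and 51.7% of those of Rps6 recur elsewhere. The figures were 1.77% for Rpl4 and 13.1% for Rplp0. Pgk1, a glycolytic gene, had a ratio of 1.01 at 162, 162 and 164 CPM, although 66.5% of its read-length stretches recur in other genes. The common reference genes Actb (1696, 2495 and 2110 CPM) and Gapdh (373, 468 and 544 CPM) varied by 1.47 and 1.46 times. Control 1 was the highest library for 12 of 12 mitochondrial protein genes at a mean of 5 CPM, of 13 matched, against 43.4% of all genes. Of these, mt-Cytb stood at 2486, 1687 and 1674 CPM and mt-Co1 at 1955, 1088 and 1654 CPM. The read-length stretches of mt-Cytb do not recur in other genes, but 26.55% of those of mt-Co1 and 99.5% of those of mt-Co2 do.

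**Figure D4:**
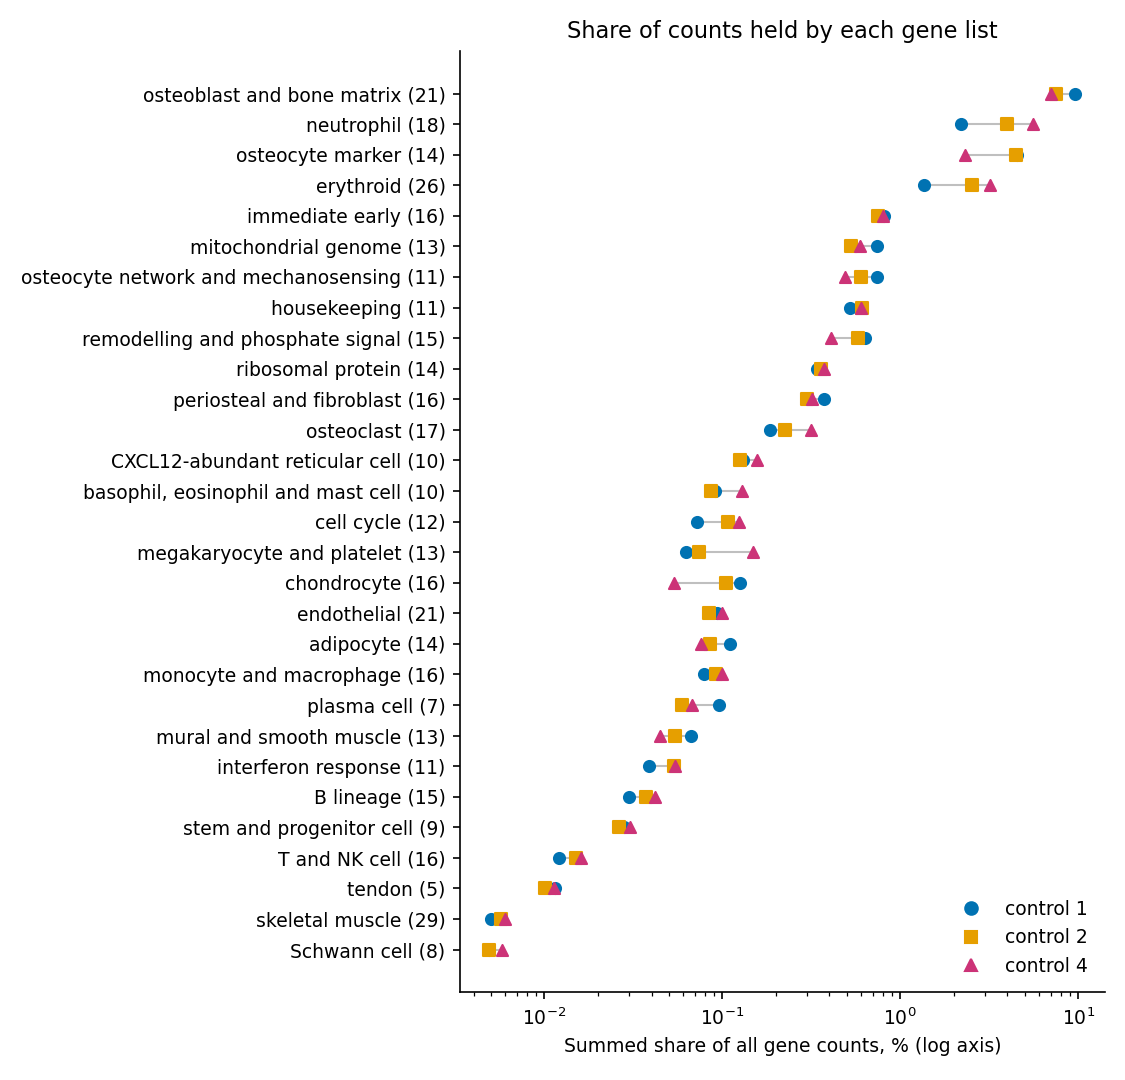
Share of all gene counts held by each gene list (horizontal, percent, log axis) in the 3 control libraries, with the number of matched genes in brackets and lists ordered by mean share. Shares are not corrected for gene length or list size. The osteoblast, neutrophil, osteocyte and erythroid lists hold more than 1% in every library, the vessel lists about 0.1% or less, and the skeletal muscle list less than 0.01%.

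Across all genes the spread was modest. The SD was 13.4% of the mean for the median gene at a mean of 5 CPM, and 90% of genes had a ratio of highest to lowest library under 1.80. Of the 651 genes with a ratio of at least 2, control 4 was the highest for 386, control 1 for 189 and control 2 for 76, and control 1 was the lowest for 394. Compared in pairs, control 1 and 4 differed by at least 2 times at 4.83% of genes, control 1 and 2 at 1.48%, and control 2 and 4 at 1.10%. Control 2 was thus the middle library, and control 1 and 4 the ends, for most of the genes that spread most.

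Erfe, the hormone gene in the series' title, was close to the floor in these controls, at 6, 1 and 2 counts or 0.606, 0.0560 and 0.139 CPM in control 1, 2 and 4.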

How the data were processed

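Total RNA libraries from osteocyte-enriched femur were used, 3 control libraries of the 6 in the series. The deposited count table held raw counts per gene from the authors, and the signal values were library-scaled counts (CPM) that the authors adjusted by TMM and filtered, per the file headers and names. The submitters' processing notes name STAR (2.7.3a and 2.5.2a), DESeq2, edgeR and limma, with GRCm38.p3 and mm10. Which tool counted the reads, and whether it used strand, is not given in the sources used here. Overlapping and antisense genes therefore cannot be told apart. Sample titles do not carry the column numbers, so libraries were mapped to the control group only.

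Here 33 gene lists with 443 names were used, of which 441 matched a row (not Destn and Ahsp). The members and lists were chosen with earlier results of these data known. Means, SDs and ratios of the highest to the lowest library were computed from the scaled values, the latter at a mean of at least 5 CPM. Levels per kb used union exon lengths from GENCODE M21, which 28493 rows had, and log2 values had 0.5 CPM added. Ranks covered genes at a mean of at least 1 CPM. Genes were named by rule as the list members, the 20 highest protein-coding genes, the 5 highest of other types and the 10 widest at a mean of at least 20 CPM. Erfe, from the series title, and Gm42793, which overlaps Spp1, were added outside this rule. Counting intervals were exact Poisson intervals at 95%. With 1 group there was no test. Other settings were other scalings, filters, thresholds, gene lengths, and leaving out each library or each list's top member. The 19 rows of the count table that are not genes held 0.00337% to 0.00361% of counts and were left out of totals. Code was tested on simulated data. Python 3.11.15, pandas 2.3.3, numpy 2.4.6, scipy 1.17.1 and matplotlib 3.10.9 were used.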

Additional observations from a re-analysis of the deposited data

Results flagged for a closer look

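The count table held rows that name no mouse gene and that no comparison used, and they are given here because reads were assigned to some of them in control libraries. A row named for a GNAS transgene held 372, 619 and 545 counts in control 1, 2 and 4. A row named Neo held 12 counts in control 2, a row named for beta-lactamase held 5 in control 1 and a row named for EGFP held 6 in control 2. How far these rows share sequence with mouse genes was not tested. With 3 libraries, single outlying libraries were not looked for.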

How the results depend on the processing

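No paired analysis was possible because only the control group was described and its column numbers do not match the numbers in the sample titles. The spread among control libraries, taken as the share of genes with a ratio of at least 2, was 5.66%, and became 12.6% with a filter of 1 CPM, 39.4% with no filter, 24.9% at a ratio of 1.5 and 0.878% at a ratio of 3. Leaving out a library gave 1.12% (without control 1), 4.90% (without control 2) and 1.47% (without control 4). Fewer libraries give a narrower range by construction. The number of osteocyte and osteoblast members among the 100 highest genes was 10 and the erythroid and neutrophil share, here of the summed CPM of all scaled rows, 6.29%, and with other settings they lay at 8 to 10 and 4.26% to 7.66%. The longest-transcript length was chosen after seeing the data.

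Some list medians of log2 control 4 over control 1 changed sign, and not all of these lay near 0. At the main settings T and NK cell genes gave -0.18, chondrocyte genes -0.30 and stem and progenitor genes 0.55. Without the TMM step the changed medians were 0.045 (monocyte), 0.081 (endothelial), 0.0037 (mural), 0.010 (tendon), 0.078 (Schwann cell) and 0.036 (immediate early). With totals that omit the 20 most abundant genes they were 0.033 (monocyte), 0.069 (endothelial), 0.00016 (tendon), 0.067 (Schwann cell) and 0.024 (immediate early). A filter of 1 CPM gave 0.011 for T and NK cell genes and 0.27 for chondrocyte genes, and no filter gave 0.057 and 0.31, with 0.18 for Schwann cell genes. A filter of 20 CPM gave 0.038 for monocyte and -0.015 for stem and progenitor genes. Without its most abundant member the tendon list gave 0.23. These causes were not tested. Depth limits genes near the floor of 3 counts, such as most muscle members.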
